A study of Mus musculus with 6 samples.

Results

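Voltage-gated sodium, calcium and HCN channel genes were examined in the ganglionic eminences, the ventral forebrain swellings that give rise to striatal and cortical inhibitory neurons, at E13.5 (embryonic day). They were chosen by symbol: the pore-forming (Scn with a number and a) and accessory (Scn with a number and b) sodium channel genes, the Cacna1 pore genes, the Cacna2d and Cacnb accessory genes, and the Hcn genes. The rule found 36 of the 55416 genes in the table, and 32 of them passed the filter on low counts and were tested. The 4 left out, Scn4a, Scn7a, Scn4b and Cacna1s, had at most 11 reads in any library. Total RNA was sequenced from 3 libraries of mice lacking both Dlx1 and Dlx2 and from 3 libraries of wild-type mice. Both groups share tissue and age. The knockout alleles, the strain, and whether a library is 1 embryo or a pool are not given in the sources used here, so p-values measure the spread between these libraries, which may in part be technical. The comparison asks which channel genes differ when these homeodomain transcription factors of the ventral forebrain are missing.

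Voltage-gated channels open when the membrane potential changes. Sodium channels carry the upstroke of the action potential, calcium channels let in the calcium that drives transmitter release and gene regulation, and HCN channels open on hyperpolarisation and pace rhythmic firing. Each sodium or calcium channel has a large pore-forming subunit and accessory subunits that bring it to the membrane and set its gating. In the embryonic forebrain such genes come on as progenitors become neurons, and Scn3a is known as the sodium channel gene of embryonic brain.

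Total counts were 56618090 to 70114173 per library, and the channel genes together held 73419 to 93315 of these reads. Dlx1 was at 18.6% and Dlx2 at 2.94% of the wild-type mean in the double knockout, so no library went against its label. All 10 marker genes of the ganglionic eminences that were looked up (among them Gad1, Gad2, Lhx6 and Ebf1) were detected in every library. Their summed level was 1291 to 1329 CPM in wild-type libraries and 849.3 to 1083 CPM in double knockout libraries, where CPM is the read count scaled to library size with TMM (trimmed mean of M values). By edgeR's quasi-likelihood test 6 of these markers were lower and 2 higher in the double knockout (adjusted p under 0.05). In bulk tissue, fewer cells of a type and less RNA per cell cannot be told apart.

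By the same test and threshold, 2 of the 32 tested channel genes were called, and both were lower in the double knockout. They were Scn10a, which encodes the tetrodotoxin-resistant sodium channel best known from pain-sensing neurons, and Cacna2d3, which encodes an alpha2-delta accessory subunit of calcium channels. This is 6.25% of the channel genes, beside 2.68% of all 23628 genes tested that were called in either direction and 1.34% that were called lower. With so few calls, the count by itself sets the channel genes apart little from all genes. Scn10a also passed the filter on low counts only through the wild-type libraries. None of the channel genes was called higher by edgeR, beside 1.34% of all genes, while DESeq2 called 2 higher, with Scn9a among them. An unadjusted p under 0.05 was reached by 9 channel genes (28.1%, 7 lower and 2 higher), beside 13.3% of all genes tested.

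Scn10a (ENSMUSG00000034533) had 87, 85 and 79 reads in the wild-type libraries and 1, 3 and 6 reads in the double knockout. Its level was 1.48, 1.32 and 1.23 CPM in wild-type libraries and 0.0154, 0.052 and 0.0865 CPM in the double knockout. Every double knockout library thus lay far below every wild-type library, although the gene was sparsely expressed to begin with. Summed over libraries, 10 reads stood against 251, which is 3.88% of the wild-type level (95% exact binomial interval 1.84% to 7.26%, counting error only). In other words the level was 25.8-fold lower, with an interval of 13.8-fold to 54.4-fold. Scn10a passed the filter on low counts (minimum count 10) only through the wild-type libraries, where it was high. The fitted log2 fold change was -4.64 (SE 0.393; edgeR adjusted p 5.63e-04). It was between -5.27 and -4.22 in the 13 alternative fits that included the gene, and called in all 13.

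Scn10a lies next to Scn11a, which encodes another channel of sensory neurons and did not pass the test. The wild-type level of Scn11a was 2.07 ± 0.378 CPM and its double knockout level 1.87 ± 0.0931 CPM (SD, n = 3), with overlapping groups (edgeR adjusted p 0.815). Its log2 fold change was -0.15 (95% interval -0.54 to 0.24). No annotated exon of another gene overlaps the exons of Scn10a in GENCODE M21. Of the markers of peripheral sensory neurons, Pou4f1 had 0.887 to 1.22 CPM over wild-type and 1.10 to 1.53 CPM over double knockout libraries (edgeR adjusted p 0.59). Prph, below the filter, had 3 or 4 reads per wild-type library and 2, 10 and 12 reads in double knockout libraries. Their part in the fall of Scn10a was not tested.

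Cacna2d3 (ENSMUSG00000021991) was at 27.5, 23.7 and 24.1 CPM in wild-type libraries and at 13.7, 14.9 and 10.9 CPM in double knockout libraries. The groups did not overlap, and the double knockout mean was 52.6% of the wild-type mean. On the log2 scale the change was -0.93 (SE 0.122; edgeR adjusted p 0.00515). The change ranged from -1.03 to -0.80 over 14 alternative fits and was called in each. Of the ganglionic eminence markers, 6 of 10 were also lower, and among these Gad2 had a log2 fold change of -1.38 (SE 0.0463) and Ebf1 of -1.55 (SE 0.0677). The part of such cells in the fall of Cacna2d3 and Scn10a was not tested.

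**Figure D1:**
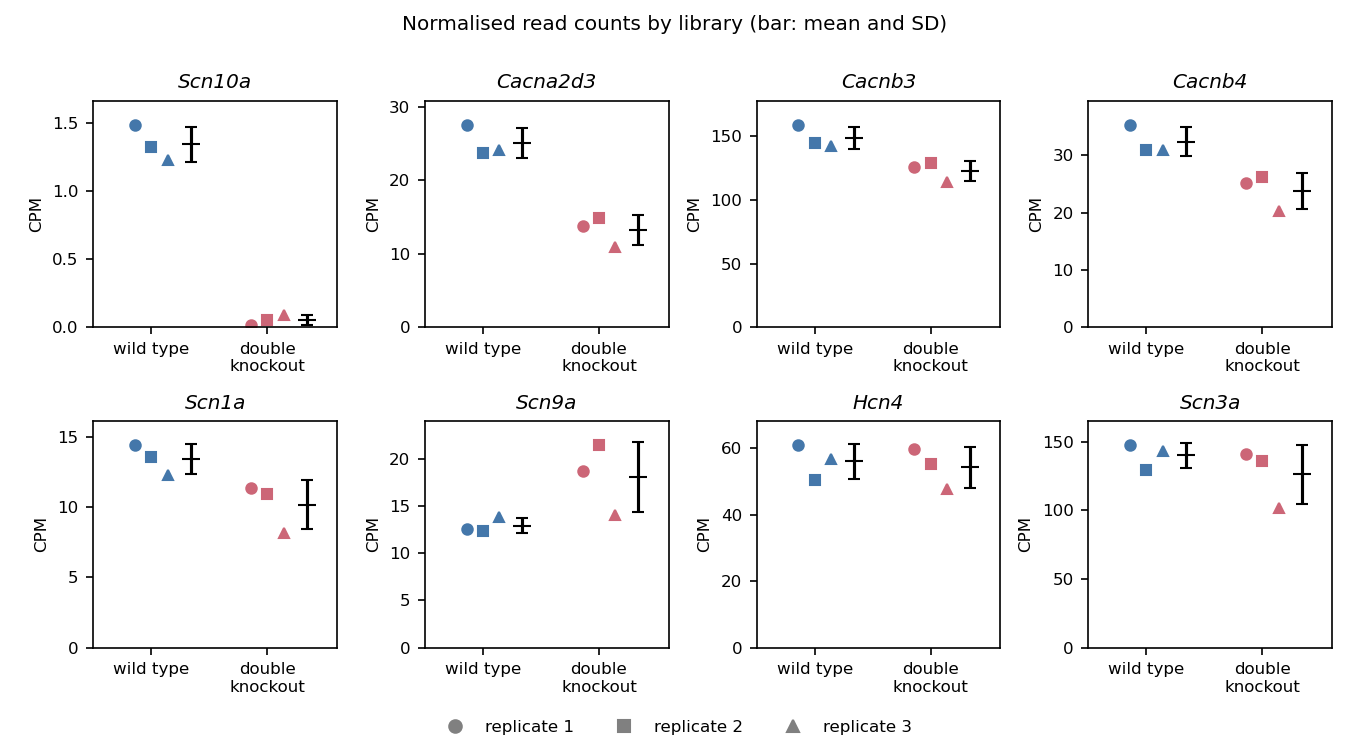
Normalised read count (CPM, vertical axis from 0) of 8 channel genes in each of the 6 libraries, with the marker shape giving the replicate number and the bar the mean and SD of 3 libraries. Scn10a is near 0 in the double knockout and Cacna2d3 is at 52.6% of its wild-type mean, while Scn3a overlaps between groups.

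Because the missing factors bind DNA through a homeodomain, whose known core contains TAAT, the 250 bases upstream of each RefSeq transcription start were searched for TAATT on both strands (AATTA on the other). The table of RefSeq promoters (GRCm38.p6) held 36 such windows for 26 of the 36 channel genes. A match was found in 8 of the 36 windows (22.2%), beside 25.0% of all 32851 windows. The window of Cacna2d3 held none. That of Scn10a held none either, but it lies wholly inside an annotated exon of the gene in GENCODE M21, so it may not be a promoter. The Cacna2d3 window is shown because that gene fell, and an Scn2a window is shown beside it because it holds 3 matches and Scn2a did not pass the test. This pair was picked and does not stand for the other windows. The other Scn2a window held no match. Cacnb4, which was lower in every double knockout library (log2 fold change -0.44), had a window without annotated exon that held 1 match. Capitals mark the matches. The Cacna2d3 window runs at chr14:29721865-29722114 on the minus strand. The Scn2a window shown runs at chr2:65620519-65620768 on the plus strand, and neither holds an annotated exon in GENCODE M21.
Cacna2d3: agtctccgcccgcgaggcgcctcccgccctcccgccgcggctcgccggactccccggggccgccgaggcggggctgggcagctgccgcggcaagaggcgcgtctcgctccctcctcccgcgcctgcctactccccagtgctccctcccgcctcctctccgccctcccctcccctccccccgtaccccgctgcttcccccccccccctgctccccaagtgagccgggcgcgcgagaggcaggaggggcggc
Scn2a: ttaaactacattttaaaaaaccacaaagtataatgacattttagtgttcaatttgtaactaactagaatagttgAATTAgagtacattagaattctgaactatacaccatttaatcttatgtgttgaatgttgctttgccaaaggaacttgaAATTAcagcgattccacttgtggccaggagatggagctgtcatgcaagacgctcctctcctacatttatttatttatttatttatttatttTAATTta
The Cacna2d3 window has 80% G and C and the Scn2a window 29.6%, around a median of 52.4% over all windows. A match to these letters is a description of the window and not a site.

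Among the other genes of the pore-forming sodium channels, Scn3a had the highest level. Per kilobase of annotated exon, which allows genes to be compared, it was at 11.3 ± 0.751 CPM over the wild-type libraries (SD, n = 3) and took 49.4% ± 0.66 of the summed level of the 10 genes. Scn2a and Scn8a followed at 4.28 and 3.18 CPM per kilobase, and Scn1a and Scn9a were at 1.21 and 1.01 CPM per kilobase. By exon length the wild-type ranges of these 5 genes did not overlap. By coding length 3 of the 10 genes changed rank and Scn3a still led, while Scn1a and Scn9a were close, at 2.23 and 2.17 CPM per kilobase. Scn1a, Scn2a and Scn8a encode the main channels of mature central neurons, and Scn9a a channel of sensory and neuroendocrine cells.

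Scn3a (ENSMUSG00000057182) was at 147.4, 129.7 and 143.6 CPM in wild-type libraries and 141.5, 135.8 and 101.6 CPM in double knockout libraries. All but the last of these lay in 1 range, and the log2 fold change was -0.15 (95% interval -0.41 to 0.11), with an adjusted p of 0.673 in edgeR. Without that last library it was -0.010. Its share of the class was 48.5% ± 0.81 in the double knockout, close to the wild-type share. Scn2a and Scn8a had log2 fold changes of -0.14 and -0.04, with intervals of -0.55 to 0.27 and -0.23 to 0.15.

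Scn1a and Scn9a, which lie side by side, did not overlap between genotypes but went in opposite directions. Scn1a was at 14.4, 13.6 and 12.3 CPM in wild-type libraries and 11.4, 11.0 and 8.17 CPM in double knockout libraries. On the log2 scale the difference was -0.40 (SE 0.134; edgeR adjusted p 0.222). Scn9a was at 12.6, 12.4 and 13.8 CPM in wild-type libraries and 18.7, 21.4 and 14.1 CPM in double knockout libraries, where replicate 3 was barely above the highest wild-type library. The fitted log2 difference was 0.48 (SE 0.144; edgeR adjusted p 0.162). The share of Scn9a in its class was 4.45% ± 0.3 over wild-type and 6.76% ± 0.52 over double knockout libraries, and that of Scn1a was 5.30% ± 0.46 and 4.37% ± 0.062. With all 6 libraries edgeR called neither gene, while DESeq2 called Scn9a (adjusted p 0.0214). Without double knockout replicate 3 the log2 fold change of Scn1a was -0.26, and that of Scn9a was 0.64 (edgeR adjusted p 0.0101). Replicate 3 was the lowest double knockout library for both genes, so leaving it out had to raise both values. Over the fits that each left out a library, Scn9a ran from 0.34 to 0.64.

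The accessory sodium channel genes, whose products are adhesion-like membrane proteins, were led by Scn3b. It was at 125.3, 101.6 and 108.2 CPM in wild-type libraries and 105.7, 103.0 and 77.9 CPM in double knockout libraries. Per kilobase it stood at 20.4 ± 2.24 CPM in the wild type, with 86.0% ± 0.37 of its class, and Scn2b followed at 2.57 CPM per kilobase. The groups overlapped for both genes, whose log2 fold changes were -0.23 and -0.05 (edgeR adjusted p 0.493 and 0.908). Without double knockout replicate 3 they were -0.091 and 0.040.

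Of the pore-forming calcium channel genes, the T-type gene Cacna1h and the N-type gene Cacna1b had the highest levels, at 12.6 ± 0.771 and 11.5 ± 3.52 CPM per kilobase in the wild type. T-type channels open at low voltage, and N-type channels serve transmitter release and neuronal migration. Their wild-type ranges overlapped. Then came Cacna1g, Cacna1e, Cacna1a and Cacna1c at 3.77, 3.49, 3.45 and 2.77 CPM per kilobase, each overlapping the next. Cacna1i and Cacna1d were at 1.36 and 1.14 CPM per kilobase and overlapped. By coding length in place of exon length, 5 of the 10 genes changed rank and Cacna1h still led. Cacna1h, Cacna1b, Cacna1e and Cacna1c were then at 17.3, 16.4, 12.9 and 8.80 CPM per kilobase. Cacna1a and Cacna1g followed at 5.54 and 5.35, so the order below Cacna1b depends on the length used.

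None of the 9 tested genes of the class was called by edgeR or by DESeq2, and Cacna1c and Cacna1h were lower at an unadjusted p under 0.05. Cacna1h was at 130.6, 115.6 and 122.1 CPM in wild-type libraries and 110.0, 114.5 and 89.4 CPM in double knockout libraries. Its groups did not overlap, by a narrow margin, and its log2 fold change was -0.23 (SE 0.0918; edgeR adjusted p 0.317). Cacna1c, the L-type gene with the highest level, was at 65.3, 52.4 and 58.2 CPM in wild-type libraries and 49.7, 48.1 and 31.9 CPM in double knockout libraries. Its log2 fold change was -0.44 (SE 0.158; edgeR adjusted p 0.255). Without double knockout replicate 3 it was -0.26, and that of Cacna1h was -0.12. The R-type gene Cacna1e, the P/Q-type gene Cacna1a and the T-type gene Cacna1g overlapped between groups, with log2 fold changes of -0.32, -0.15 and -0.13, and of -0.097, -0.012 and 0.069 without that library. Those of Cacna1i, Cacna1d and Cacna1f were 0.013, 0.019 and 0.0097.

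Cacna1b did not separate by genotype. It was at 74.6, 127.4 and 140.9 CPM in wild-type libraries and 73.5, 70.1 and 107.3 CPM in double knockout libraries. Wild-type replicate 1 thus sat with double knockout replicates 1 and 2, and double knockout replicate 3 was nearer to the other wild-type libraries. Its share of the class was 19.7% to 33.0% over wild-type and 20.4% to 35.4% over double knockout libraries. The log2 fold change was -0.45 (SE 0.236; edgeR adjusted p 0.482). It ran from -0.68 without wild-type replicate 1 (edgeR adjusted p 0.156) to -0.27 without wild-type replicate 3, and was -0.67 without double knockout replicate 3. No other gene overlaps its exons in GENCODE M21.

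**Figure D2:**
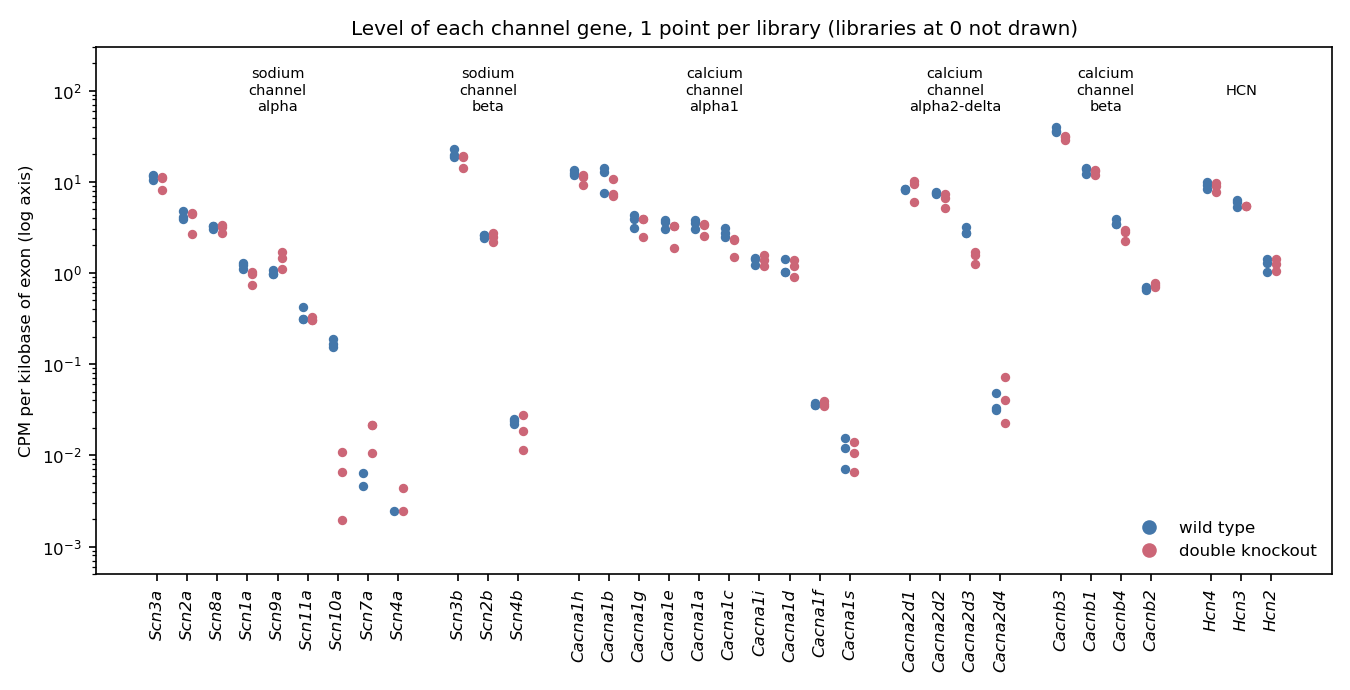
Level of 33 channel genes in CPM per kilobase of annotated exon (log axis), grouped by class and ordered by wild-type mean, with 1 point per library. Scn3a, Scn3b, Cacna1h, Cacna2d1, Cacnb3 and Hcn4 lead their classes, and Scn10a is the gene whose genotypes lie farthest apart among those tested.

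The alpha2-delta genes encode extracellular subunits that raise the number of calcium channels at the membrane, and Cacna2d1 and Cacna2d2 encode the binding sites of gabapentin. Cacna2d1 and Cacna2d2 were at 8.22 ± 0.128 and 7.53 ± 0.187 CPM per kilobase in the wild type, and Cacna2d3 was the third at 2.88 ± 0.24. Cacna2d3 took 15.4% ± 1.1 of the summed level of the class in the wild type and 9.30% ± 0.67 in the double knockout, and Cacna2d1 took 44.0% ± 0.99 and 51.4% ± 2.6. Both shares were without overlap between groups, and no test was run on shares. Cacna2d1 was at 102.2, 103.6 and 100.4 CPM in wild-type libraries and 116.9, 125.1 and 74.8 CPM in double knockout libraries. Its double knockout libraries fell on both sides of the wild type, and the log2 fold change was 0.05 (SE 0.16; edgeR adjusted p 0.941). Without double knockout replicate 3 the log2 fold change was 0.25 (SE 0.0455) and the edgeR adjusted p 0.0235. That library was the lowest of all for Cacna2d1, so leaving it out had to raise the value. Without double knockout replicate 1 or 2 the log2 fold change was -0.031 or -0.091. Cacna2d2 did not overlap between groups, at 58.6 to 61.5 CPM and 40.8 to 57.9 CPM, but had an edgeR adjusted p of 0.411. Its log2 fold change was -0.24, and -0.10 without double knockout replicate 3.

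The Cacnb genes encode the cytoplasmic beta subunits of calcium channels. Cacnb3 had the highest level of all 36 genes per kilobase of exon, 37.1 ± 2.2 CPM in the wild type. Per kilobase of coding sequence it came second, at 102.3 CPM, behind Scn3b at 173.1 CPM. By exon length it took 67.7% ± 1.6 of its class. It was at 158.6, 145.0 and 142.1 CPM in wild-type libraries and 125.5, 128.8 and 114.0 CPM in double knockout libraries, so every double knockout library was lower. The log2 fold change of Cacnb3 was -0.28 (SE 0.0637; edgeR adjusted p 0.0668). Cacnb4 was at 35.3, 30.9 and 31.004 CPM in wild-type libraries and 25.1, 26.2 and 20.2 CPM in double knockout libraries, also without overlap. On the log2 scale the difference was -0.44 (SE 0.106; edgeR adjusted p 0.0757). Exons of A430018G15Rik on the opposite strand cover 15.99% of the exon length of Cacnb4, whose counts are uncertain if counting ignored strand. DESeq2 (adjusted p 0.0177 for Cacnb3 and 0.00436 for Cacnb4) and edgeR with no filter on low counts (0.0346 and 0.0234) called both genes. Cacnb1 and Cacnb2 overlapped between groups, with log2 fold changes of -0.06 and 0.11 and edgeR adjusted p-values of 0.846 and 0.695.

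Among the HCN genes, Hcn4, which encodes the slow pacemaker channel of the heart and embryonic brain, had the highest level. It was at 60.9, 50.6 and 56.9 CPM in wild-type libraries and 59.8, 55.2 and 47.8 CPM in double knockout libraries. The fitted log2 difference was -0.05 (95% interval -0.27 to 0.17). Per kilobase of exon, Hcn4, Hcn3 and Hcn2 were at 9.17, 5.85 and 1.24 CPM in the wild type, with no overlap between neighbours. By coding length 2 of the 4 genes of the class changed rank and Hcn4 still led. Hcn2 and Hcn3 had log2 fold changes of 8.6e-04 and -0.12, with edgeR adjusted p-values of 0.999 and 0.599. Exons of Pklr cover 17.1% of the exon length of Hcn3 on the opposite strand.

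Counted over the classes, 10 of the 32 tested channel genes (31.2%) did not overlap between genotypes, beside 19.5% of all genes tested. Of these, 8 were lower (25%, beside 10.2% of all genes) and 2, with Scn9a among them, were higher (6.25%, beside 9.3%). The log2 fold change was below 0 for 23 of 32 (71.9%), beside 50.5% of all genes, and its median was -0.14, beside -0.0016 over all genes. The excess on the lower side was smaller without double knockout replicate 3, which was picked because it was low for most of these genes. Double knockout replicate 3 was below both other double knockout libraries for 28 of 32 channel genes (87.5%), beside 38.9% of all genes. Double knockout replicate 3 had the lowest of the 6 values for 25 of 32 channel genes (78.1%), beside 23.2% of all genes. Without it, 17 of 32 log2 fold changes were below 0 and their median was -0.011, beside -0.0040 over all genes. Leaving out the library lowest for most of these genes had to raise most of their values, so the direction of this move was fixed beforehand. The same counts are not given here for the other libraries left out. The channel genes took 0.147%, 0.135% and 0.142% of all counts in the wild type and 0.136%, 0.137% and 0.105% in the double knockout.

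The same library stood apart in general markers. The summed level of 13 genes of neurons (among them Tubb3, Dcx and Snap25) was 6938 to 7465 CPM over wild-type libraries, 6647 and 6489 CPM in double knockout replicates 1 and 2 and 5720 CPM in replicate 3. Of these genes, 9 had their lowest value in replicate 3. The sum of 9 progenitor genes (among them Nes, Sox2 and Mki67) was 2712 to 3073 CPM over wild-type libraries, 3325 and 3153 CPM in double knockout replicates 1 and 2 and 3721 CPM in replicate 3. Calls in edgeR were 2 lower (Snap25 and Elavl3) of the 13 neuron genes and 1 higher (Hes5) of the 9 progenitor genes. The sum of 7 markers of cortical excitatory neurons was also lower in every double knockout library, at 620.7 to 648.2 CPM against 762 to 776.8 CPM, with none of the 7 called by edgeR and 6 of them lower at an unadjusted p under 0.05. Of 5 markers of oligodendrocyte precursors 4 were higher. No tested marker of endothelial, mural, microglial, erythroid, meningeal, skeletal muscle or cardiac cells was called by edgeR or had an unadjusted p under 0.05. The muscle markers Ckm, Myog, Nkx2-5 and Tnnt2 were below the filter, and Tnnt2 had 1 read in each wild-type library and 10, 6 and 6 in double knockout libraries. The part of the cell mixture in the channel values was not tested.

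**Figure D3:**
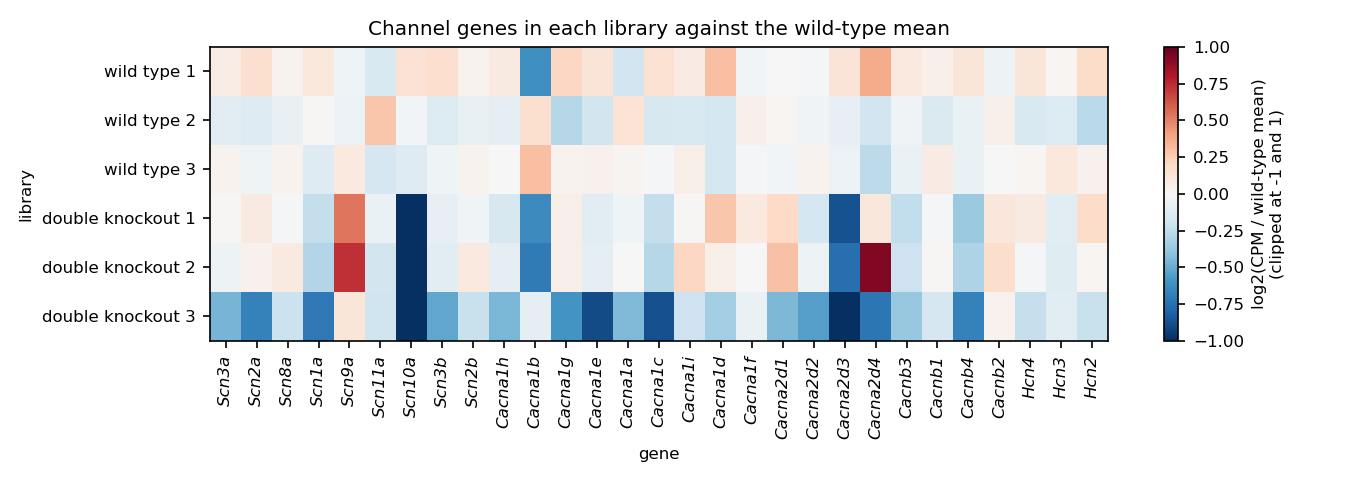
Log2 ratio of each library to the wild-type mean (colour, clipped at -1 and 1) for 29 tested channel genes, with libraries in rows. Double knockout replicate 3 is the lowest of the 6 libraries for 23 of them, and Scn10a and Cacna2d3 are low in all 3 double knockout libraries.

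**Figure D4:**
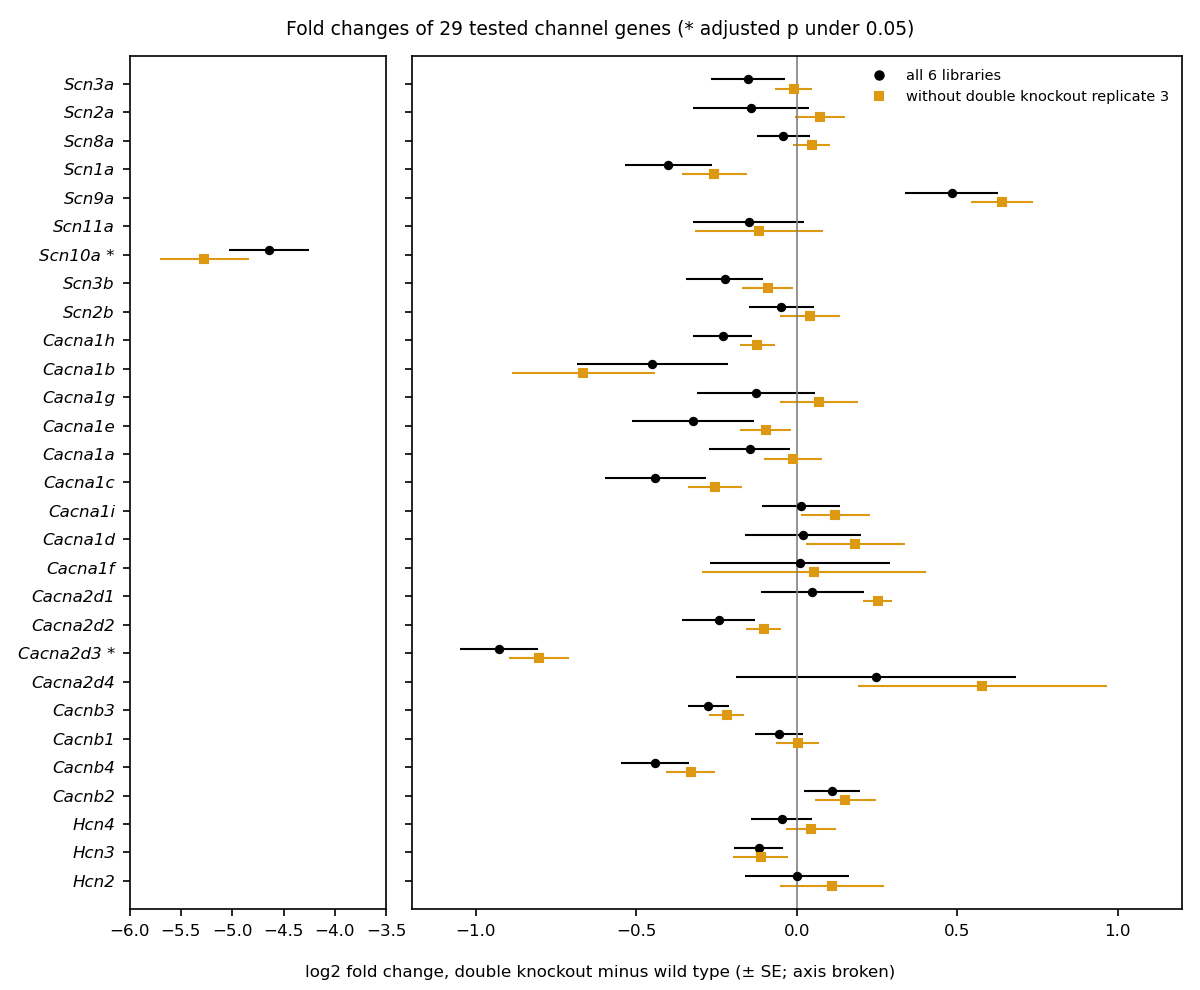
Log2 fold change (double knockout minus wild type, with SE) of 29 tested channel genes, with all 6 libraries and without double knockout replicate 3 on a broken axis. Without that library 15 of 29 values are below 0 in place of 21, while Scn10a and Cacna2d3 stay far below 0.

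Partner genes of these channels were taken from 6 lists: proteins that bind sodium channels, calcium channels or HCN channels, the NALCN leak channel complex, other cation channels of the superfamily, and the repressor REST (Rest) with its corepressors. Of 49 symbols, 48 were found and 43 tested. Of these, edgeR called 3 lower and none higher (DESeq2 called 2 higher), beside 1.34% of all genes called in each direction, and the median log2 fold change was -0.06.

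Stac2, an adaptor gene of L-type calcium channels, changed most among the partners. It was at 11.5, 13.1 and 10.4 CPM in wild-type libraries and 4.81, 5.26 and 4.74 CPM in double knockout libraries. The log2 fold change of Stac2 was -1.24 (SE 0.113; edgeR adjusted p 8.29e-04), and it was called in all 14 alternative fits. Cacng3, one of the gamma subunit genes whose product traffics AMPA receptors, was at 4.35, 3.75 and 2.99 CPM in wild-type libraries and 1.73, 2.10 and 1.53 CPM in double knockout libraries. On the log2 scale the difference was -1.05 (SE 0.188; edgeR adjusted p 0.0235). Fgf11, an intracellular FGF homologue of the family that binds sodium channels, was at 26.2, 26.7 and 25.0 CPM in wild-type libraries and 19.5, 16.9 and 20.0 CPM in double knockout libraries. The fitted log2 difference was -0.46 (SE 0.0824; edgeR adjusted p 0.0233). None of these 3 genes overlapped between groups.

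The calls of Cacng3 and Fgf11 depended on single libraries. Cacng3 was not called in edgeR without wild-type replicate 1 or 2 or double knockout replicate 1, with adjusted p of 0.0895 to 0.0984. Fgf11 was called in 1 of the 6 fits without a library, that without double knockout replicate 3, and its adjusted p in edgeR was up to 0.1. With a covariate from Y-linked genes it was 0.0718. The other sodium channel partners were not called by edgeR with the reported settings. Fgf12, Fgf13 and Fgf14, of the family of Fgf11, were lower without overlap between groups, with log2 fold changes of -0.43, -0.23 and -0.48. Their edgeR adjusted p-values were 0.238, 0.091 and 0.09. Ank2 was higher without overlap (0.25, edgeR adjusted p 0.168), and Ank3 and Nfasc of the axon initial segment overlapped. DESeq2 called Ank2, Fgf14 and Tpcn2 besides Stac2, Cacng3 and Fgf11, and edgeR called Fgf14 lower with no filter and Tpcn2 higher with a 1 CPM filter. None of the 4 NALCN complex genes tested, the 3 HCN partners or Rest, Rcor1 and Rcor2 was called either by edgeR. Rest, the known repressor of neuronal channel genes in progenitors, had a log2 fold change of 0.06 (95% interval -0.07 to 0.19).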

How the data were processed

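Total RNA libraries (DNase-treated RNA, ribosomal RNA depleted, strand-marking kit, per the labels' protocols) came from 3 wild-type and 3 double knockout samples, grouped by their titles. The authors deposited a table of raw read counts per gene, made with featureCounts on GRCm39 per the submitters' processing notes. The aligner, annotation release and strand setting are not given in the sources used here. All per-library columns were used.

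Genes were filtered with filterByExpr (minimum count 10, minimum total 15), scaled by TMM and tested over all 23628 remaining genes with edgeR 4.0.16 quasi-likelihood (R 4.3.3, prior count 0.125, Benjamini-Hochberg adjustment, threshold 0.05), two-sided. A standard error is the fold change divided by the root of F. The script was tested on simulated data. The 4 genes below the filter are given by their counts. A count of 3 corresponds to 0.0428 to 0.053 CPM. Intervals of summed counts cover counting error only. Exon and coding lengths and overlaps came from GENCODE M21 (GRCm38), another build than the counts', and no coordinates were taken across. No 2 libraries held identical counts.

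The members and lists were chosen with earlier results of these data known. Named were the called members and the one with the highest level per kilobase in each class or calcium channel subfamily, and called partners. Per-library values of Scn1a, Scn9a, Cacna2d1 and Cacnb4 were added after values were seen. Some channel and marker genes are not reported here and are not drawn, but stay in the counts and class totals. Tried besides were other scalings, DESeq2 1.42.0, limma-voom (limma 3.58.1), other filters, a replicate term, a covariate from 4 Y-linked genes, a threshold of 0.01 and each library left out.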

Additional observations from a re-analysis of the deposited data

How the results depend on the processing

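Scn10a and Cacna2d3 were called in every alternative that tested them, and Scn10a fell below the filter at a mean of 1 CPM. The number of channel genes called was 6 (2 higher, 4 lower) with DESeq2, 4 (all lower) without a filter, and 1 with the 1 CPM filter, against 2 in the reported test. It was 2 to 4 in the fits without 1 library, and the 4 came without double knockout replicate 3, where Scn9a (0.64, adjusted p 0.0101 in edgeR) and Cacna2d1 (0.25, 0.0235) were called higher. For both genes that replicate was the lowest double knockout library, so leaving it out had to raise their values. Cacnb3 and Cacnb4 were called with DESeq2 (adjusted p 0.0177 and 0.00436), without a filter (0.0346 and 0.0234 in edgeR) and with the replicate block (0.036 and 0.0494). DESeq2 also called Scn9a (0.0214). Partner genes called were 6 with DESeq2, 1 at an adjusted p under 0.01 and 1 to 3 without 1 library (1, Stac2, without wild-type replicate 1 or 2 or double knockout replicate 1). Over all genes, 1162 were called with DESeq2, 358 with the Y-linked covariate, 275 at an adjusted p under 0.01 and 309 to 749 without 1 library, against 634. Total count scaling called 646 genes, of which 60.4% were higher, against 50%. The cause was not tested, except where fewer libraries or a stricter threshold are the alternative itself.

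With the replicate number as a replicate block, 4 channel genes, 5 partner genes and 690 genes in all were called, and the partners included Fgf13 and Fgf14. Libraries with the same number deviated from the group mean with correlations of -0.0694, -0.0022 and 0.0018, and none matched best with its own number, so the block rests on a number alone.

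Of 477 single-gene values over the alternatives for the channel genes, 24 changed sign, for 13 genes, and none of these was past the threshold on either side. In the fits without 1 library the log2 fold changes ran from -0.13 to 0.19 for Cacna1d, -0.036 to 0.053 for Cacna1f, -0.25 to 0.069 for Cacna1g, -0.10 to 0.12 for Cacna1i, -0.091 to 0.25 for Cacna2d1, -0.24 to 0.58 for Cacna2d4, -0.12 to 0.0027 for Cacnb1, -0.12 to 0.11 for Hcn2, -0.12 to 0.043 for Hcn4, -0.23 to 0.012 for Scn11a, -0.28 to 0.072 for Scn2a, -0.13 to 0.040 for Scn2b and -0.11 to 0.046 for Scn8a. With the Y-linked covariate Cacna1i was at -0.0086 and Hcn2 at -0.00053. Depth limits the lowest genes: below about 10 reads per library no difference could be tested.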

Other observations

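The channel genes known from muscle, glia or retina, and the accessory gene Scn4b, were near the limit of detection. Scn4a, the sodium channel gene of skeletal muscle, had at most 1 read per wild-type library and at most 2 per double knockout library. Cacna1s, its calcium channel counterpart, had 3 to 6 reads in both groups, and Scn4b had 7 or 8 and 4 to 8. Scn7a, the sodium-sensing channel gene of glia and some neurons, had 2, 0 and 3 reads in wild-type libraries and 5, 9 and 11 in double knockout libraries. These 4 genes were below the filter and were not tested. Markers of skeletal muscle summed to 4.93 to 6.40 CPM in wild-type and 4.07 to 6.26 CPM in double knockout libraries. The retinal genes Cacna1f and Cacna2d4 passed the filter with 19 to 23 and 15 to 39 reads per library, overlapped between groups and had edgeR adjusted p-values of 0.996 and 0.886.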
